A study of Mus musculus with 23 samples.

Results

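CD8 T cells of the lymph node that held the chemokine transcript Ccl5 were described across wild-type mice and mice with an edited Stat5b gene. The cells were chosen by their own counts. A cell barcode was kept with at least 200 detected genes and at most 10% mitochondrial unique molecular identifiers (UMIs, each standing for 1 captured RNA molecule), was gated as a CD8 T cell with at least 1 UMI of Cd8a or Cd8b1 and none of Cd4, Cd79a or Trdc, and was a member with at least 1 UMI of Ccl5. The gate held 3271 cells of 12090 gated CD8 T cells, 41204 kept lymph node barcodes and 139967 barcodes in all expression libraries of the series. Since Ccl5, Cd8a, Cd8b1, Cd4, Cd79a and Trdc selected the cells, their values are given as a description and were not tested.

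CD8 T cells carry a receptor that reads peptides on MHC class I and kill infected or transformed cells with granule proteins and cytokines. Resting cells that have met antigen, or that have responded to cytokines alone, keep Ccl5 transcripts ready and are known to carry CD44, the IL-2 and IL-15 receptor chain encoded by Il2rb, and the factors T-bet and Eomes. STAT5B is the transcription factor that these receptors activate through JAK kinases, and the tyrosine studied lies in its SH2 domain, the module that binds phosphorylated tyrosine.

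All mice were C57BL/6 per the labels, the study's methods naming the substrain C57BL/6N, and 2 months old. The lymph node groups were wild-type (WT, 2 libraries), heterozygous STAT5B-Y665F (het, 3 libraries) and homozygous STAT5B-Y665F (homo, 2 libraries), each with a gene expression library and a T-cell receptor library. The substitution was made in the germline with CRISPR/Cas9, so every cell of the animal carries it, and the study describes a skin disease in both het and homo mice. By its account homo mice could be followed to about the sampled age before the disease complicated matters, and the state of the sampled mice is not given in the sources used here. Spleen was used from 1 library each of WT, STAT5B-Y665H and STAT5B-Y665F mice, the labels of which give no zygosity, and the Y665H substitution was made in the germline by base editing. The labels do not say whether the libraries of a group came from separate mice, so the p-values measure the spread between libraries. The guide and the donor define the genotype compared throughout and are shown for that reason. The guide lies on chr11:100787287-100787309 (GRCm38), antisense to Stat5b and within its exon 16 of 19, with the PAM in capitals. The reference and donor stretches cover the 50 bases of chr11:100787267-100787316 in the direction of the gene, with the 2 changed bases in capitals. Counted from 1 at the 5′ end of this stretch the changes are A25T and C26T, bases 2 and 3 of the tyrosine codon, which make it a phenylalanine codon. Over all 133 bases of the donor these were the only differences from the reference. A further silent C-to-G change named in the study's methods is not in the donor as listed there.
Guide with PAM: tgaggtaattcaggtcccccAGG
Reference: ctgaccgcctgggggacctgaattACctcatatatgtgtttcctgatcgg
Donor: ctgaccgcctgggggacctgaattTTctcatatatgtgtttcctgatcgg

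The libraries differed in depth. The median number of UMIs per kept barcode ranged from 368 to 3116, and het replicate 3 and homo replicate 1, at 368 and 395, stood apart below the other 5 libraries, which began at 874. Members held more UMIs than gated CD8 T cells without Ccl5 in each of the 7 libraries, with medians of 561 to 4453.5 against 466 to 3635. The summed UMIs of the members ranged from 160369 in WT replicate 1 to 3251734 in het replicate 1. Any 2 lymph node libraries shared 26 to 91 barcodes and at most 1 member. A productive T-cell receptor beta chain was found in 3129 members (95.7%), and 231 of these (7.38%) had 2 or more.

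Cells with Ccl5 were a small share of the CD8 T cells in wild-type lymph nodes and a large one in the edited animals. They made up 7.46% (exact binomial 95% interval 6.05 to 9.07, 92 cells) and 6.96% (6.00 to 8.03, 174 cells) in the WT libraries. In the het libraries they made up 35.9% (33.8 to 38.1, 698 cells), 27.0% (24.8 to 29.2, 442 cells) and 28.8% (26.4 to 31.3, 389 cells). In the homo libraries they made up 38.9% (36.5 to 41.3, 649 cells) and 47.1% (44.8 to 49.5, 827 cells). The WT libraries lay below all the others, whereas the intervals of het replicate 1 and homo replicate 1 overlapped. The group means were 7.21% ± 0.348 (SD, n = 2), 30.6% ± 4.72 (SD, n = 3) and 43.0% ± 5.82 (SD, n = 2). These intervals cover counting error only, and the shares are a description because Ccl5 defined the cells.

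Part of such a share can come from free RNA and from depth, so the same share was taken in cells gated as B cells, which should lack the transcript. There 0.191% to 1.22% of cells held a Ccl5 UMI, at median depths of 298 to 1944 UMIs, which was below the share in the CD8 gate of the same library in each of the 7 libraries. After each cell was thinned to 300 UMIs, the CD8 shares were 2.61% and 2.22% for WT, 15.4%, 11.3% and 20.3% for het, and 30.1% and 29.1% for homo, with B-cell shares of at most 2.05%. Thinning left out 973 kept barcodes of het replicate 3 and 844 of homo replicate 1 as too shallow, and none of the other libraries. At equal depth the 3 genotypes did not overlap, with means of 2.41% ± 0.277, 15.7% ± 4.49 and 29.6% ± 0.727, and the fold between homo and WT was larger than with all UMIs. Without the 2 shallow libraries, the values that remain with all UMIs are 7.46% and 6.96%, 35.9% and 27.0%, and 47.1%.

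**Figure D1:**
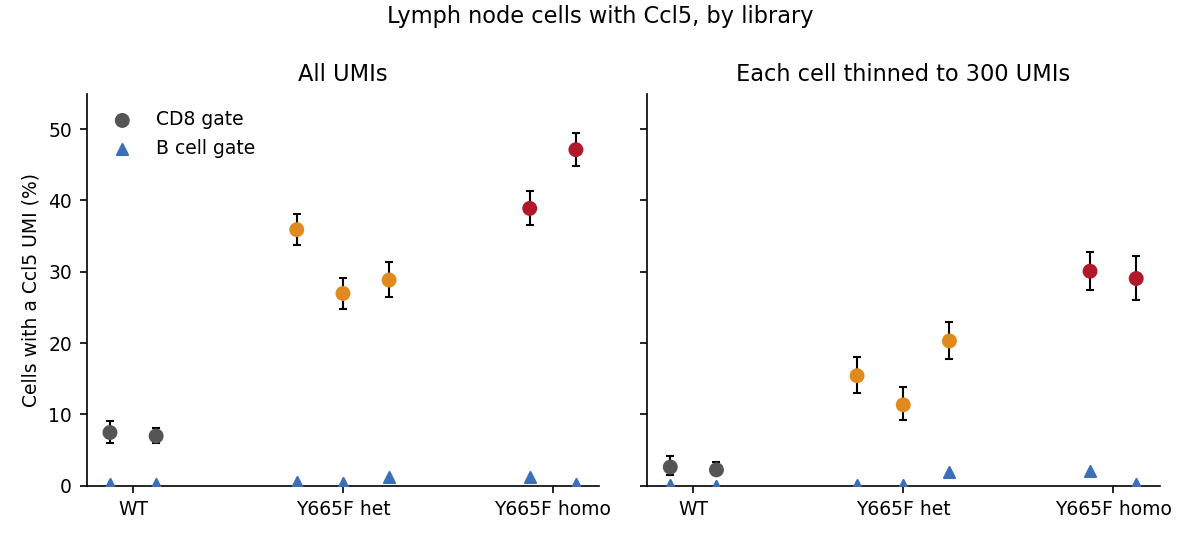
Percent of CD8-gated cells with at least 1 Ccl5 UMI in each lymph node library (circles, with exact binomial 95% intervals) and of B-gated cells (triangles), with all UMIs on the left and after thinning to 300 UMIs per cell on the right. The WT libraries sit at 7.46% and 6.96% on the left and at 2.61% and 2.22% on the right, below every het and homo library, and the B-gated cells stay at or below 2.05%.

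As a share of all kept barcodes the members were fewest in WT, while het at 7.41% to 14.3% and homo at 11.9% to 16.3% overlapped. Members were 1.63% ± 0.365 (n = 2) of all kept WT barcodes, 10.4% ± 3.52 (n = 3) of het and 14.1% ± 3.13 (n = 2) of homo barcodes. Gated CD8 T cells as a whole were 22.8% ± 6.16, 33.7% ± 7.25 and 32.6% ± 2.87 of kept barcodes, with het and homo alike in their means.

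Within the gate, Ccl5 itself ranged widely from cell to cell. Median Ccl5 counts per member were 2 and 2.5 UMIs for WT, 9, 4 and 2 for het, and 2 and 7 for homo, with the highest cell at 113 UMIs in het replicate 1. The lowest medians were those of both WT libraries and of the 2 shallow ones. Scaled to the summed UMIs of the same cells, and expressed per 1000000 of them (CPM), Ccl5 stood at 2544 and 2379 for WT, 3114, 3008 and 4946 for het, and 4885 and 5240 for homo. The means were 2461 ± 117, 3689 ± 1089 and 5062 ± 251 CPM, and het replicate 3 lay within the range of the homo libraries. Every member holds at least 1 Ccl5 UMI through the gate, so a cell with fewer UMIs starts from a higher CPM. Cd8a, another gate gene, stood at 853 and 838 CPM in members of the 2 shallow libraries, het replicate 3 and homo replicate 1. In members of the other libraries it stood at 480 to 541 CPM. Without the 2 shallow libraries the Ccl5 values were 2544 and 2379 for WT, 3114 and 3008 for het, and 5240 for homo. The part of depth in the means above was not tested. Just inside the gate, 694 members (21.2%) rested on exactly 1 Ccl5 UMI, from 12% in het replicate 1 to 34.8% in WT replicate 1.

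**Figure D2:**
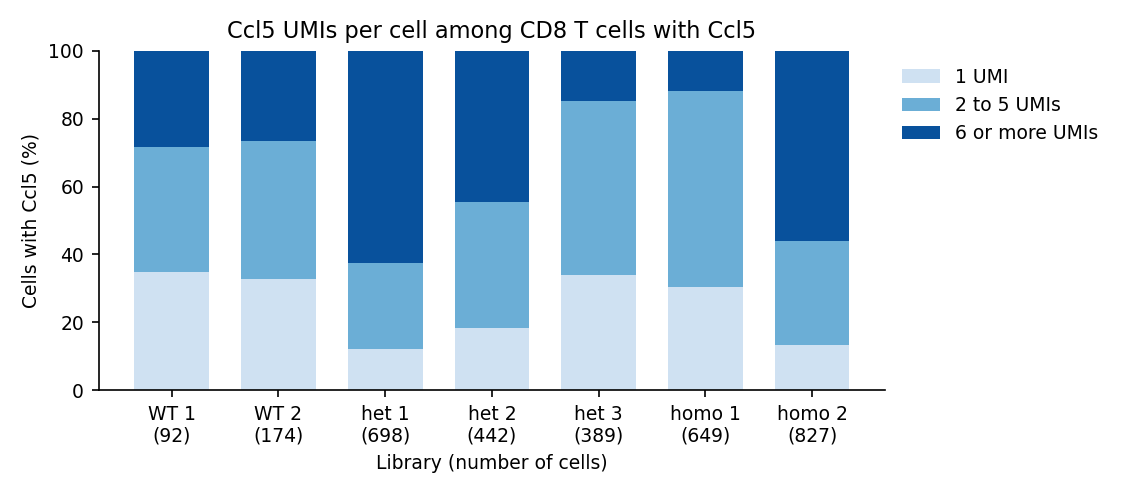
Percent of the members of each library with 1, with 2 to 5 and with 6 or more Ccl5 UMIs, stacked to 100%. The top class takes 62.5% of members in het replicate 1 and 56.1% in homo replicate 2, and 11.7% to 14.9% in the 2 shallow ones.

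The label was checked against the receptor chains and genes outside the gate. Cd8a and Cd8b1 are part of the gate and check nothing. Cd8a stood at 480 to 853 CPM in members and 668 to 1096 CPM in gated CD8 T cells without Ccl5, and Cd8b1 at 1002 to 1815 and 1200 to 2089 CPM. None of the 20 genes of the T-cell receptor complex and costimulation list, among them Cd3d, Cd3e, Trac and Lck, was called different between members and the cells without Ccl5, with a median log2 fold change of 0.03. Markers of memory CD8 T cells summed to 3930 to 4913 CPM in members against 1735 to 2887 without Ccl5. Markers of naive T cells summed to 1814 to 2484 against 2289 to 2690 CPM. The memory sums of the sides did not overlap, and the naive ones did. Without the gate genes, the alpha-beta receptor chains and the T-cell genes match the label of T cells, while the CD8 lineage rests on the gate.

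Other cell types were looked for in the same sums. B-cell markers stood at 200 to 389 CPM in members and 286 to 609 without Ccl5, with Cd79a at 0 through the gate. Markers of CD4 T cells, regulatory T cells and myeloid cells reached at most 75.0, 33.4 and 123 CPM in members, against at most 93.8, 57.7 and 176 without. Among the CD4 markers, Cd4 itself was at 0 on both sides through the gate. NK markers were 36.4 to 92.0 CPM against 5.09 to 49.3. Of the 4 tested, 3 were called higher in members and 1 was not called, with a median log2 fold change of 3.61. These counts describe the genes that passed a filter on low counts. Ncr1, which defines NK cells, was at 0 in 5 of the 7 member sums, and the part of NK cells was not tested. Markers of gamma-delta T cells were 0 to 23.1 CPM against 0 to 9.56, with Trdc at 0 through the gate, and those of NKT cells were 0 to 8.36 against 0 to 2.07, with their defining factor Zbtb16 at 0 in every member sum. Red cell markers were at 0 in every sum.

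Which other genes set the members apart was asked within each library, members against gated CD8 T cells without Ccl5, with edgeR's quasi-likelihood test on summed counts and the library as a term. A gene was called with a Benjamini-Hochberg adjusted p under 0.05 and a change of more than 2-fold, which is 1 on the log2 scale. Of 8856 genes tested, 253 were called (2.86%), 153 of them higher (1.73%) and 100 lower (1.13%) in members, while the median log2 fold change of all genes was −0.0014. In 101 tested genes (1.14%) all 7 member sums lay above all 7 sums without Ccl5, and in 143 (1.61%) all lay below. Of the called genes, 71 higher and 34 lower ones were apart in this way. In the lists described next, a gene could also pass the low-count filter only through the side where it was high, so their counts and medians are descriptions of the genes that passed. Among the 10 largest rises without overlap were 5 killer-cell receptor genes and Gzmm, and among the 10 largest falls were Ccr9 and Itgae. The count was 234 with DESeq2 (151 higher, 83 lower) and 302 without the 2 shallow libraries (174 higher, 128 lower). Both sides of the comparison come from the same droplets and libraries, and the members were the deeper cells in each.

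Of 12 granule and killing genes tested, 4 were called higher, none lower, and the median log2 fold change was 0.81. Gzmm, which encodes granzyme M (chr10:79689020-79695261, GRCm38, plus strand), led them. It stood at 125 and 66.0 CPM in WT members, 101, 108 and 155 for het, and 146 and 134 for homo, against 4.17 and 3.94, 3.89, 5.45 and 18.6, and 22.9 and 2.55 CPM without Ccl5. Every member sum lay above every sum without, amounting to 4.33 ± 0.14 on the log2 scale (SE, edgeR adjusted p = 4.18e-67), and the highest sums without Ccl5 were those of the 2 shallow libraries. A Gzmm UMI was seen in 7.86% to 23.8% of members, 0.323% to 0.980% of CD8 T cells without Ccl5 and a median of 0.0763% of B cells. The share in members was lowest in homo replicate 1 and highest in het replicate 1, the deepest library, so a member without a Gzmm UMI cannot be read as negative. After thinning to 300 UMIs the median shares were 3.99% and 0.0876%.

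The other called granule genes were Gzma, Fasl and Serpinb6b. Gzma, granzyme A, ranged from 1.79 to 68.6 CPM with a median of 14.8 in members and from 1.39 to 3.38 CPM without, and was higher in 6 of 7 libraries (log2 fold change 3.36). Fasl, the death ligand, ranged from 11.6 to 18.0 CPM against 0 to 9.56 (2.73), without overlap. Serpinb6b, a protease inhibitor, changed by 1.06 and lost its call without het replicate 1. Other granule genes were not called. Nkg7, a granule membrane protein, changed by 0.82 and was seen in 51.4% to 97.7% of members and 33.5% to 80.5% of the other CD8 T cells, while Prf1 (perforin) changed by 0.68, Ctsw by 0.80 and Cst7 by 0.88, all under the 2-fold limit. Gzmb, the main effector granzyme, had a log2 fold change of 0.65 with edgeR adjusted p = 0.204, and a median of 0.967% of members held a UMI of it.

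Receptors first known from natural killer cells had large folds among those that could be tested. Of 16 on the list, 9 passed the filter on low counts and 7 were not tested. Only 2 of the list passed in the cells without Ccl5 alone, so most entered through the members, where they are high, and the 8 called higher and the median log2 fold change of 4.53 describe those that passed and support nothing. Klre1, a lectin receptor that pairs with other killer receptors, stood at 37.4 and 18.0 CPM in WT members, 33.2, 34.0 and 50.2 for het, and 25.6 and 26.7 for homo, and at 0 to 4.14 CPM without Ccl5. The fitted log2 fold change of Klre1 was 5.74 ± 0.33, given as a description like those that follow. Klrc1, the inhibitory NKG2A chain, ranged from 19.7 to 54.3 CPM against 0 to 7.65 (4.53 ± 0.29), and Klrk1, the activating NKG2D, from 8.36 to 37.4 against 2.53 to 6.21 (2.88 ± 0.25). None of these 3 overlapped between the sides.

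For several of these receptors the cells without Ccl5 gave almost no molecules, so folds are bounded. Klrc2, the activating NKG2C chain, had 63 UMIs in all members and 0 in the cells without, at least 43.6-fold higher against a floor of 3 counts over all libraries. Klra8, an activating Ly49 receptor and an NK marker here, had 54 UMIs against 0, at least 37.3-fold higher, and was above 0 in 6 of 7 libraries. Klra6 had 91 UMIs against 3, a ratio of 62.9 (exact 95% interval 20.9 to 311). Klra7, an inhibitory Ly49 receptor, ranged from 4.18 to 24.9 CPM against 0 to 3.82 with a log2 fold change of 5.11 ± 0.50. The Klra genes lie in a cluster of near-identical copies, so reads can be split among them and single members are uncertain. Klra3 (3.50) and Cd160 (1.24) were also called, and Klrd1, the partner chain of the NKG2 receptors, changed by 0.33.

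Among 12 secreted or surface ligands besides Ccl5, 5 were called higher and none lower, with a median of 0.49. Ccl4, an inflammatory chemokine, stood at 37.4 and 60.0 CPM in WT members, 44.9, 70.8 and 58.5 for het, and 48.7 and 91.3 for homo, against 1.68 to 21.0 CPM without Ccl5 (log2 fold change 2.74 ± 0.17, edgeR adjusted p = 1.62e-34). Ifng, the interferon gamma gene (chr10:118441046-118445892, plus strand), ranged from 24.9 to 57.9 CPM with a median of 42.1, against 0.69 to 12.7 with a median of 4.33 (2.94 ± 0.19). Neither gene overlapped between the sides. A UMI of Ifng was present in 1.54% to 11.9% of members, so most members held none at this depth. Xcl1, a chemokine that draws cross-presenting dendritic cells, was higher in 6 of 7 libraries (33.4 to 85.4 against 8.34 to 43.5 CPM, 1.90 ± 0.12), the exception being the shallow het replicate 3. Ccl3 (3.95 ± 0.71, at most 12 CPM) and Tnfsf14 (1.77) made up the rest, and Tnf had a log2 fold change of −0.05.

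Receptors that steer cells moved in both directions, with 8 of 21 called higher, 2 lower and a median of 0.20. Cxcr3, which follows interferon-induced chemokines into inflamed tissue, stood at 150 and 174 CPM in WT members, 165, 158 and 184 for het, and 205 and 188 for homo, above all 7 sums without Ccl5 at 30.7 to 89.9 CPM (log2 fold change 1.89 ± 0.08, edgeR adjusted p = 1.07e-51). It was found in 10.0% to 49.9% of members and 3.13% to 13% of the other CD8 T cells. Ccr2 ranged from 6.24 to 33.4 CPM against 0 to 7.65 (3.37 ± 0.27), in the same direction as Cxcr3.

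Adhesion and exit receptors were also among the higher genes. Cd44, a hyaluronan receptor used to recognise antigen-experienced T cells, ranged from 41.8 to 118 CPM against 18.8 to 28.7 (1.81 ± 0.11), and Itgb1, an integrin beta chain, from 120 to 162 against 39.2 to 72.5 (1.53 ± 0.09). Gpr15 (3.44) and Gpr183 (1.22), both guidance receptors, were called higher. S1pr5, which guides exit into the blood, had 44 UMIs against 1, a ratio of 91.3 (exact 95% interval 15.5 to 3686). Ccr7, a receptor for entry into lymph nodes, had a log2 fold change of −0.79 with 164 to 192 CPM in members against 297 to 380 without, below the 2-fold limit though without overlap.

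The 2 called falls among homing receptors were Ccr9 and Itgae, both tied to the gut and to epithelium. Ccr9, the receptor of the intestinal chemokine CCL25, stood at 6.24 and 9.0 CPM in WT members, 3.08, 2.69 and 0 for het, and 0 and 4.45 for homo, against 89.6 and 80.0, 66.0, 65.4 and 55.9, and 28.7 and 48.4 CPM without Ccl5. The change was −4.06 ± 0.19 on the log2 scale (edgeR adjusted p = 1.27e-45). Itgae, the CD103 integrin chain that holds cells at epithelium, ranged from 2.56 to 27.0 CPM against 49.2 to 95.2 (−3.07 ± 0.17). In both genes every member sum lay below every sum without Ccl5.

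**Figure D3:**
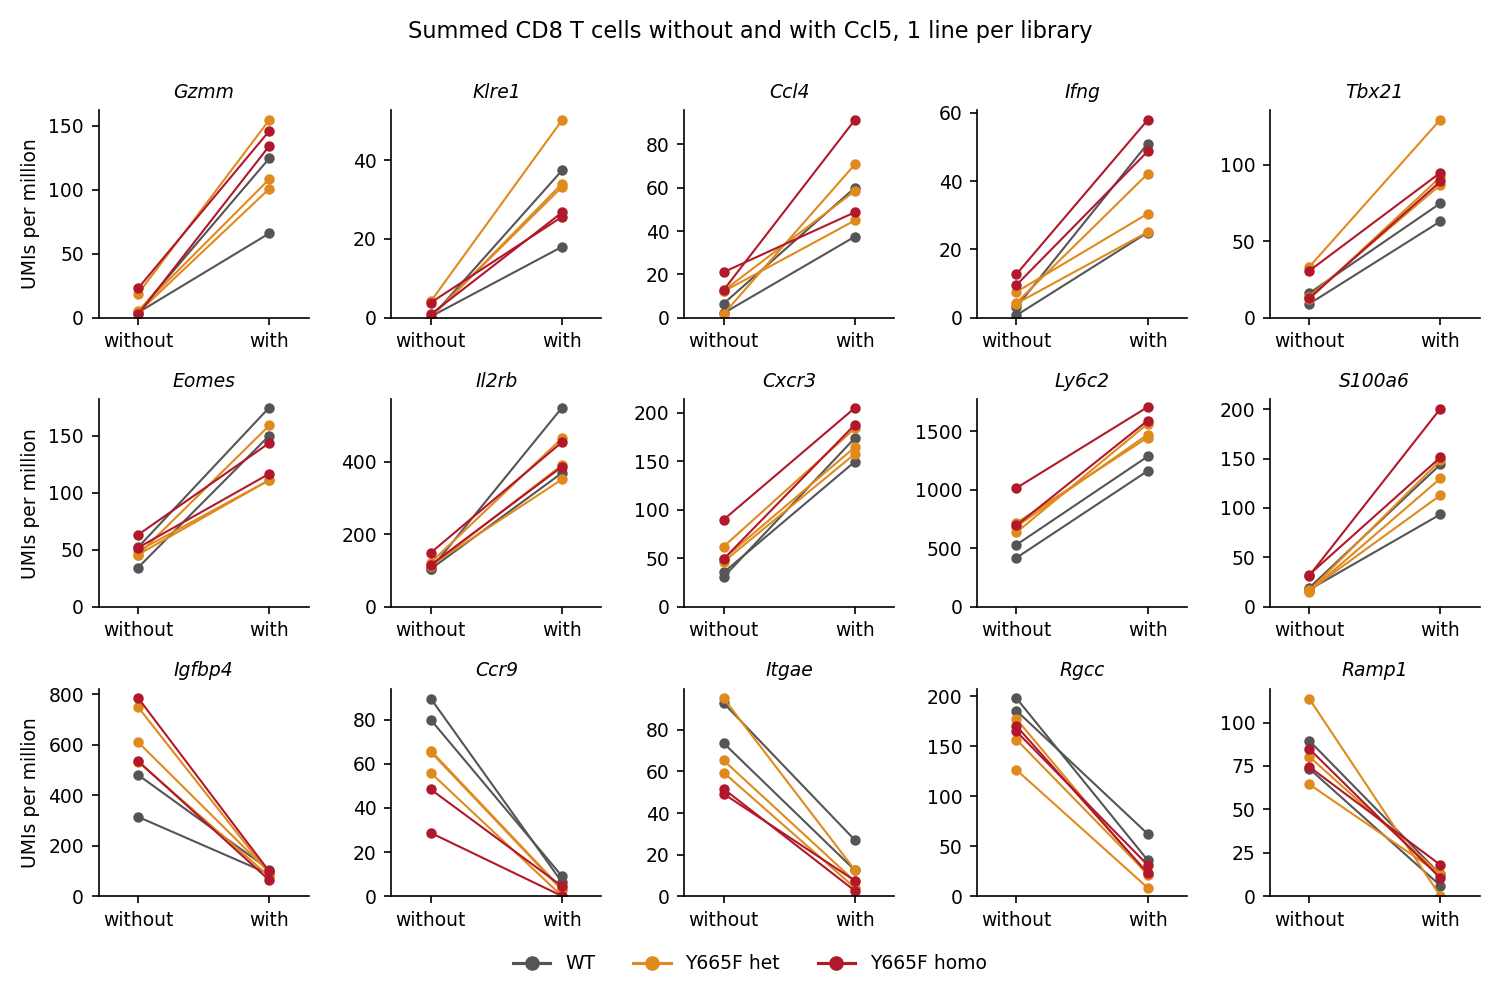
CPM of 15 genes in the summed CD8 T cells without Ccl5 (left point) and with Ccl5 (right point) of each lymph node library, 1 line per library coloured by genotype. Lines of all 7 libraries climb for the first 10 genes, from Gzmm to S100a6, and drop for the last 5, Igfbp4, Ccr9, Itgae, Rgcc and Ramp1, in each genotype.

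Of 18 transcription factors of naive and memory cells, 3 were called higher and 1 lower, with a median of −0.08. Tbx21, which encodes T-bet, the driver of Ifng and Cxcr3, stood at 74.8 and 63.0 CPM in WT members, 92.0, 86.9 and 130 for het, and 94.8 and 89.1 for homo, against 9.01 to 33.1 CPM without (log2 fold change 2.71 ± 0.12, edgeR adjusted p = 8.43e-50). Eomes, its relative that sustains memory cells, ranged from 111 to 175 CPM against 34.4 to 63.1 (1.45 ± 0.09). Both were apart in all libraries. Bhlhe40 (1.79) was the other higher factor, and Sox4 (−1.12) was called lower but lost the call without het replicate 1. The naive factors Tcf7 and Lef1 had log2 fold changes of −0.14 and −0.66, neither past 2-fold.

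Receptors of cytokines gave 4 higher and 1 lower among 17 tested, with a median of −0.05. Il2rb, the shared chain of the IL-2 and IL-15 receptors upstream of STAT5, stood at 549 and 369 CPM in WT members, 464, 391 and 351 for het, and 454 and 386 for homo, against 104 to 149 CPM without Ccl5 (log2 fold change 1.95 ± 0.05, edgeR adjusted p = 7.21e-77). It was detected in 18.8% to 79.2% of members, 5.42% to 31.1% of the other CD8 T cells and a median of 0.304% of B cells, and after thinning in a median of 11.2% and 3.09% of the CD8 T cells. Both chains of the IL-18 receptor were called, Il18rap (41.8 to 62.4 against 3.40 to 15.3 CPM, 2.85 ± 0.16) and Il18r1 (1.53 ± 0.10), and so was Il10ra (1.16). Ifngr2, a chain of the interferon gamma receptor, fell by 2.64 on the log2 scale, from 23.0 to 37.3 CPM without Ccl5 to 2.23 to 15 CPM in members. Il7r, the IL-7 receptor of resting T cells, changed by 0.46.

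The list of STAT5 pathway genes and targets had 2 calls among 25, Il2rb and Il18r1, both already named, and a median of 0.16. The survival gene Bcl2 changed by 0.83 (318 to 449 against 158 to 377 CPM) and the kinase gene Pim1 by 0.67, under the 2-fold limit. Stat5b itself was lower in members, at 34.0 to 46.8 CPM against 68.7 to 88.0, a log2 fold change of −0.78 ± 0.10 with edgeR adjusted p = 3.33e-11 that stayed under 2-fold, and the sides did not overlap. Stat5a changed by −0.44. The interferon-induced list held no higher and 1 lower call, Iigp1 (−2.33), among 20, and 2 of its genes were above 0 with a median of −0.27. No cell-cycle gene of 16 was called (median 0.21), and a median of 1.33% of members held an Mki67 UMI.

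Some genes of the Ly6 family and of the S100 and cytoskeleton group were also called. Ly6c2, the Ly6C antigen of memory CD8 T cells, ranged from 1161 to 1707 CPM with a median of 1472 in members and from 419 to 1015 with a median of 685 without (log2 fold change 1.27 ± 0.03, edgeR adjusted p = 3.29e-77). It was found in 54.2% to 96.7% of members and 25.5% to 52.6% of the other CD8 T cells. Of the 6 Ly6 genes tested, Ly6c1 (−1.24) and Ly6d (−3.09) were lower, and the median was −0.81. Among cells with a beta chain, Ly6d had a log2 fold change of −1.31 and was not called. Ly6c1 and Ly6c2 are close copies whose reads can be split. Of 16 S100 and cytoskeleton genes, 5 were called higher and none lower, with a median of 0.41. S100a6, a calcium-binding protein, ranged from 93.5 to 200 CPM against 15.5 to 32.5 (3.01 ± 0.10) and Ahnak, a large scaffold protein, from 324 to 533 against 99.4 to 212 (1.66), both without overlap. Lgals1 (1.15), Anxa2 (1.5) and Myo1f (1.63) completed the group.

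Further genes led the rises by size. Cd163l1, a scavenger receptor of the cysteine-rich family (chr7:140218267-140231145, plus strand), ranged from 49.9 to 136 CPM with a median of 73.5 in members and from 0.28 to 34.4 with a median of 2.51 without Ccl5 (4.29 ± 0.18). It was found in 4.37% to 12% of members and in a median of 0% of gated B cells. The kinase gene Lrrk1 (3.93 ± 0.29), Gas7 (3.86 ± 0.36) and Tmem163 (3.63 ± 0.30) each lay above all sums without Ccl5. Also called higher were 2 receptor gene segments, Trav21-dv12 and Trgv2, whose calls were lost in 10 and 4 of the other settings tried.

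The falls were led, beyond Ccr9 and Itgae, by genes of other kinds. Igfbp4, a secreted binder of insulin-like growth factors (chr11:99041244-99054392, plus strand), stood at 87.3 and 105 CPM in WT members, 77.8, 94.1 and 87.8 for het, and 97.4 and 63.1 for homo, against 314 and 480, 533, 610 and 749, and 786 and 535 CPM without Ccl5. It fell by 2.70 ± 0.06 on the log2 scale (edgeR adjusted p = 3.31e-90), the smallest p of the comparison, and was detected in 3.86% to 17.9% of members and 26.7% to 63.8% of the other CD8 T cells. Rgcc, a cell-cycle regulator, ranged from 8.36 to 62.4 against 126 to 198 CPM (−2.62 ± 0.10). Ramp1, the partner of the CGRP receptor, ranged from 0 to 17.9 against 64.5 to 114 CPM (−2.58 ± 0.14). Actn2 (−2.43 ± 0.17), the amino acid transporter gene Slc6a19 (−2.69 ± 0.31), Mtss1 (−2.31 ± 0.27) and Gm43698 (−2.18) filled the list. Each lay below all sums without Ccl5.

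Calls on checkpoint and B-cell genes held less firmly. Of 8 checkpoint genes, Tigit (1.49) and Cd160 (1.24) were higher and Ctla4 (−1.61) lower, and the median was −0.17. Tigit and Ctla4 lost the call without het replicate 1, as did Fcer1g (1.48), Fosb (1.07, the 1 call among 13 immediate early and heat shock genes, median 0.03) and Lgals1. The calls of Tigit and Fcer1g were also lost without WT replicate 2. Cd74, the MHC class II invariant chain, was lower in 6 of 7 libraries (10.7 to 161 against 31.2 to 308 CPM, −1.80), while its log2 fold change was −0.42 among cells with a beta chain only. Cd74 is itself on the B-cell marker list, whose sums are given above, and the part of B-cell RNA in this call was not tested. Izumo1r (−1.78), a marker on the CD4 list, was the 1 call of 2 genes tested there.

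Members near the limit of the gate were set beside the cells just outside it, as a description. Median CPM over the 7 libraries in cells with 0, 1 and at least 2 Ccl5 UMIs were 4.17, 51.7 and 148 for Gzmm, and 114, 296 and 412 for Il2rb. For Ly6c2 they were 685, 1400 and 1490, so cells with a single Ccl5 UMI were already close to the rest of the members. Among the lower genes, Igfbp4 went 535, 162 and 73.7, and Itgae 65.4, 12 and 6.42. The cells with 1 UMI lay between the others in each of these genes, on the members' side of the midpoint for Il2rb, Ly6c2, Igfbp4 and Itgae.

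Promoters of the genes called between members and the cells without Ccl5 were searched for the STAT binding motif. That comparison was made within each library and not between genotypes. Windows of 250 bases before to 50 after each start were taken from RefSeq (GRCm38.p6) and searched for the GAS motif TTCNNNGAA, which reads the same on both strands. The motif was present for 12 of the 131 higher genes with a window (9.16%), 3 of the 69 lower ones (4.35%) and 575 of the 7073 tested genes with one (8.13%), so the share of the higher genes was near that of all genes. The window of Gzmm, the granule gene with the largest change, is shown with its motif in capitals (chr10:79688770-79689069, plus strand). A match of these letters does not show a bound site, and the lack of one does not show that no site lies outside the window. The study reports STAT5B binding in distal and intronic regions as well as at promoters.
Gzmm promoter: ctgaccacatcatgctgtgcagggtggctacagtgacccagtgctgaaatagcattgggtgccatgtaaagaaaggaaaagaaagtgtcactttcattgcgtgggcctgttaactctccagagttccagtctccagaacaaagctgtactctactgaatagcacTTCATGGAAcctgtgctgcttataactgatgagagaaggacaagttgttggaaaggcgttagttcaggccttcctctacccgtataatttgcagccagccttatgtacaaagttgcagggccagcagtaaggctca

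The second question was whether genotype changed expression within the members. Among 5485 genes tested, edgeR's quasi-likelihood test called none between homo and WT (0.0%) and none between het and WT (0.0%), with 411 and 291 genes at an unadjusted p under 0.05. DESeq2 called none in either comparison, with 137 and 78 genes at an unadjusted p under 0.05. Without the low-count filter edgeR gave 6 and 1 calls, and with at least 2 Ccl5 UMIs 4 and 3. Homo against het gave 1 call (0.0182%, 288 at an unadjusted p under 0.05, none by DESeq2). Without the 2-fold limit, 2 genes had an edgeR adjusted p under 0.05 there. The WT side had the fewest cells, 92 and 174. On simulated counts, with a spread that was set and not fitted to these data, the homo against WT test called 6.38% of 2-fold rises. It called 88% of 4-fold rises and 66.7% of 4-fold falls there. A count of none therefore does not show that genotype left expression in the members unchanged. The comparisons of homo and of het with WT share the WT libraries, and group medians of all genes were −0.0001 and −0.0029.

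The single call was Med13, a subunit of the Mediator kinase module. It stood at 10.3 and 11.1 CPM in homo members, 35.7, 34.9 and 20.9 for het, and 24.9 and 36.0 for WT, so the homo libraries lay below the rest. Homo against het gave a log2 fold change of −1.65 ± 0.33 with edgeR adjusted p = 0.0358. The counts behind it were 4 to 116 UMIs a library, and the call was lost when het replicate 1, het replicate 2 or homo replicate 2 was left out, with a minimum of 300 genes per cell, with at least 2 Ccl5 UMIs and after the doublet screen.

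Genes of the lists with the smallest p in homo against WT are given by their values. With so few libraries many genes can have genotypes that lie apart, and the share of all tested genes that did was not counted. Statements here and below on which genotypes lie apart describe the named genes only. Ifi27l2a, an interferon-induced gene, stood at 237 and 144 CPM in WT members, 284, 269 and 230 for het, and 264 and 458 for homo (log2 fold change 1.12 ± 0.24, edgeR adjusted p = 0.0857). The WT and homo values did not overlap, and 237 and 264 CPM were the nearest. Irf7, the interferon regulatory factor, stood at 62.4 and 42.0, 84.6, 66.3 and 50.2, and 131 and 101 CPM (1.18 ± 0.31, adjusted p = 0.20 in edgeR). Ifit3, another induced gene, had 2 UMIs in the WT members and 12.5 and 0, 29.8, 27.8 and 33.4, and 20.5 and 37.1 CPM, with a log2 fold change of 3.01 (adjusted p = 0.20 in edgeR). The homo to WT ratio of pooled UMIs was 8.24 (exact 95% interval 2.18 to 69.7). This interval and those of the other pooled ratios treat each UMI as independent. They leave out the spread between cells and between libraries. Stat2, a factor of interferon signalling, went the other way, at 43.6 and 42.0, 21.5, 16.1 and 25.1, and 12.8 and 10.4 CPM (−1.92 ± 0.52, edgeR adjusted p = 0.201), with both WT libraries above the rest. Bst2, tetherin, stood at 187 and 156, 213, 215 and 251, and 261 and 264 CPM (0.67 ± 0.20, edgeR adjusted p = 0.356). Of the 17 interferon-induced genes tested, 10 were above 0 in homo against WT with a median of 0.24, and the median in het against WT was −0.07.

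Without the 2 shallow libraries, the homo comparison rested on 1 library, assumed to vary like the other groups, and called 8 genes, among them Ifi27l2a, Ifit3, Srm and Gzma. Srm, spermidine synthase, is on none of the lists and is named after its values were seen. It stood at 74.8 and 42.0 CPM for WT, 92.9, 116 and 142 for het, and 141 and 130 for homo members (1.35 ± 0.30, edgeR adjusted p = 0.0857). Gzma was the granule gene that differed most by size. It stood at 68.6 and 54.0 CPM for WT, 12, 1.79 and 33.4 for het, and 2.56 and 14.8 for homo members, a ratio of 0.206 (0.112 to 0.374) for homo and 0.181 (0.112 to 0.297) for het over WT in pooled counts. Both WT libraries lay above all 5 others, and edgeR gave adjusted p = 0.20 for homo and 0.409 for het. The WT values rest on Gzma UMIs of 5 and 3 cells, and those of het replicate 3 and homo replicate 1 on 1 cell each. UMIs of the same cell are not independent, so the intervals of these ratios are too narrow. Summed NK markers were lower in homo members (36.4 to 53.8 CPM) than in WT members (69.0 to 81.1 CPM). Het members overlapped both (46.6 to 92.0 CPM), and the part of NK cells in Gzma was not tested. The median of the 9 granule genes tested in homo against WT was 0.05.

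The other list genes with the smallest p were receptors and regulators. Naive T-cell markers, of which Il7r is 1, summed to 2264 to 2484 CPM in WT members, 1814 to 2156 for het and 1986 to 2040 for homo, and none of the 6 was above 0 in homo or het against WT. B-cell markers summed to 200 to 204, 212 to 389 and 259 to 377 CPM. WT members were thus highest in the first sum and lowest in the second, and the part of either in the genotype differences was not tested. Il7r stood at 611 and 675 CPM for WT, 571, 447 and 355 for het, and 326 and 434 for homo members (−0.72 ± 0.19), and Cxcr6, a tissue-homing chemokine receptor, at 93.5 and 108, 70.7, 66.3 and 58.5, and 48.7 and 51.2 CPM (−1.0 ± 0.26), both at edgeR adjusted p = 0.20. In Cxcr6 both WT libraries lay above the het libraries and those above the homo libraries. Klf3, a transcriptional repressor, stood at 118 and 117, 159, 179 and 150, and 200 and 209 CPM (0.82 ± 0.22, edgeR adjusted p = 0.20), without overlap of the 3 groups. Cd69, an early activation antigen, gave −0.58 (edgeR adjusted p = 0.387). Ly6a, the Sca-1 antigen, stood at 87.3 and 84.0, 35.7, 26.9 and 83.6, and 71.8 and 51.2 CPM, and het against WT gave −1.18 ± 0.31 (edgeR adjusted p = 0.444), with the shallow het replicate 3 at the WT level. Stat5b gave 37.4 and 45.0, 40.6, 34.0 and 37.6, and 41.0 and 46.8 CPM (0.12, adjusted p = 0.974 in edgeR), so the WT libraries overlapped both other groups, and het lay just below homo. The 18 STAT5 genes tested had a median of 0.085, the 17 homing receptors −0.07 and the 6 NK receptors −0.52 in homo against WT.

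**Figure D4:**
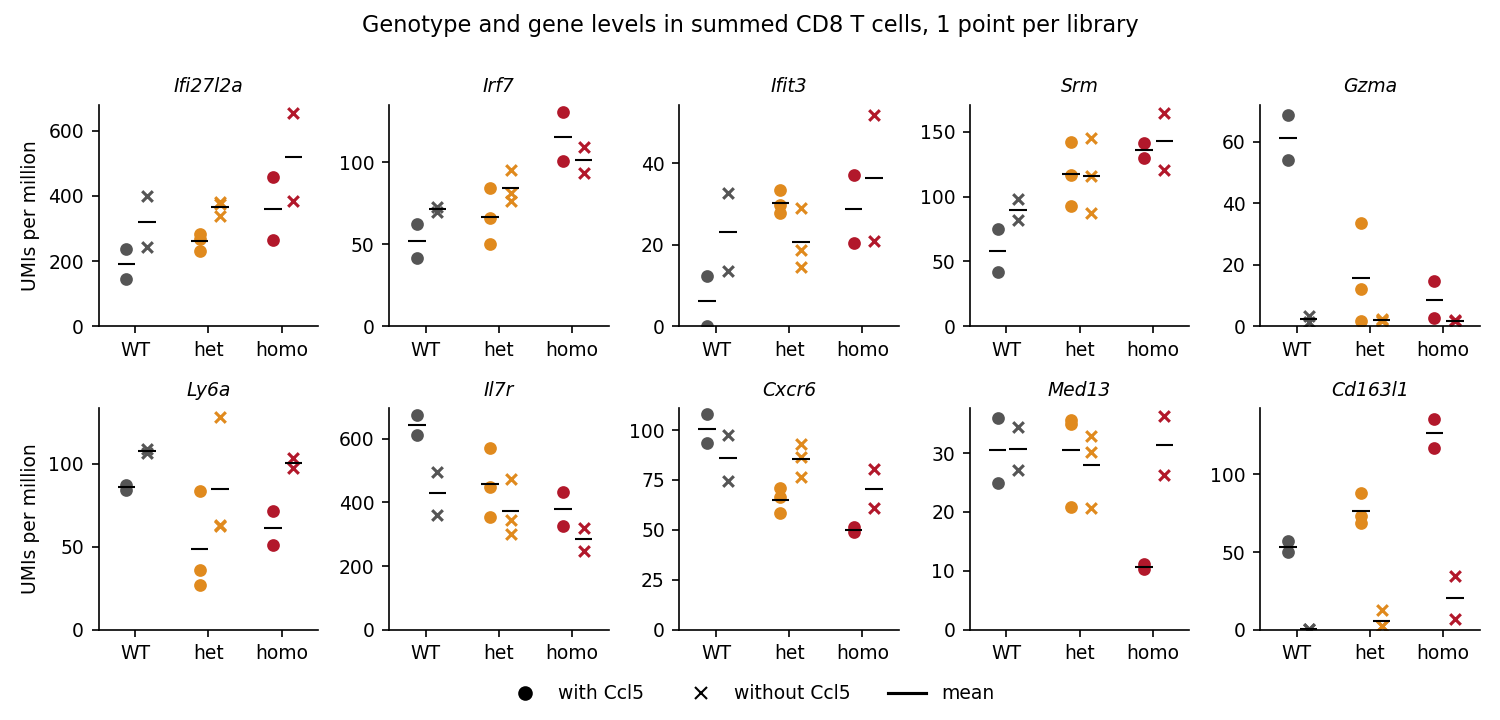
CPM of 10 genes in lymph node CD8 T cells with Ccl5 (circles) and without Ccl5 (crosses) by genotype, 1 mark per library, with short bars at the group means. Gzma is highest in the 2 WT member sums at 68.6 and 54.0, Med13 lowest in the 2 homo member sums at 10.3 and 11.1, and Cd163l1 lies near 0 in the WT cells without Ccl5.

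The same genotype test in the CD8 T cells without Ccl5, which hold more cells, called 13 of 8812 genes between homo and WT (0.148%) and none between het and WT (0.0%). Of these, 9 were higher and 4 lower. Cd163l1 (log2 fold change 5.16, with 2 UMIs in all in WT) and Drc1 (3.03) were among the rises. Plac8 rose from 130 and 93.8 CPM in WT to 356 and 262 in homo (log2 fold change 1.48), Pdlim4 by 2.95 and Ddc by 1.83, and Tmie (−1.82) and Rasa2 (−1.01) were among the falls. Markers of memory CD8 T cells summed to 1735 to 1932 CPM in the WT and 1999 to 2887 CPM in the homo cells without Ccl5, and all 9 tested were above 0 with a median of 0.32, none of them called. Their part in these calls was not tested. That genes passed in these cells and not in the members does not show that the effect of genotype differed between them, and the difference was tested for itself.

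This test of whether homo against WT differed between members and the cells without Ccl5 called 1 of 8856 genes (0.0113%, 441 at an unadjusted p under 0.05, none by DESeq2). On the simulated counts this test called 4% of 2-fold and 46% of 4-fold rises. The gene called in the data was Cd163l1. In members it stood at 49.9 and 57.0 CPM for WT, 68.9, 73.5 and 87.8 for het, and 136 and 117 for homo, and in cells without Ccl5 at 0.695 and 0.282, 2.16, 2.51 and 12.4, and 34.4 and 6.79 CPM. The homo to WT ratio was 2.22 (exact 95% interval 1.48 to 3.45) in members and 38.1 (9.55 to 332) without Ccl5, where WT held 2 UMIs in all. The difference was −3.79 ± 0.80 on the log2 scale (edgeR adjusted p = 0.0262), and it was −2.75 and not called without the 2 shallow libraries. The call was also lost without WT replicate 1, WT replicate 2, het replicate 1 or homo replicate 1, with at least 2 Ccl5 UMIs and after the doublet screen, and leaving out 1 library moved the difference between −4.85 and −2.71. Among cells with a beta chain it was −3.76 (edgeR adjusted p = 0.0101). Cd163l1 is also known from gamma-delta T cells. Of 6 markers of those cells, summed levels in members were 0 to 6.24 CPM for WT, 0 to 7.17 for het and 14.1 to 23.1 for homo, with Trdc at 0 through the gate and Sox13 at 0 in each member sum. In the cells without Ccl5 they were 0 to 0.28 CPM for WT, 0 to 2.16 for het and 7.64 to 9.56 for homo, so these markers were highest in homo on both sides, and their part in this result was not tested. Members missed at low depth also count as cells without Ccl5. On that side Cd163l1 was highest in the shallow homo replicate 1 and het replicate 3. The part of missed members was not tested either.

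Whether the members were expanded clones was asked from the receptor libraries. Of the receptor barcodes 94.5% to 98.9% were found in the expression library of the same name and at most 1.57% in any other. Of 2784 members with both chains, 59 (2.12%) shared their receptor with another cell of the library. In WT these were 0 of 77 (exact 95% interval up to 4.68%) and 1 of 141 members (0.709%), in het 8 of 604 (1.32%), 14 of 353 (3.97%) and 13 of 337 (3.86%), and in homo 4 of 568 (0.704%) and 19 of 704 (2.70%). The 3 het libraries lay above both WT libraries, and the homo libraries overlapped both groups. An exact permutation test of the order WT, het, homo, which does not look for a peak in het, gave p = 0.648, where the smallest possible p is 0.00952. CD8 T cells without Ccl5 had 0.0993% to 7.01% of cells in shared receptors. Their highest shares were those of het replicate 2 at 7.01%, above its members, and het replicate 3 at 3.27%. The lowest was that of het replicate 1. The WT shares were 0.440% and 0.393%, and the homo ones 0.570% and 1.07%. High shares in het replicates 2 and 3 were thus not confined to members. An exact sign-flip test of the 7 paired differences (mean 0.0594 percentage points) gave p = 0.922.

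Members held 2762 distinct receptors, and none occurred in more than 1 library. In 22 clones there were 2 member cells, and no clone had 3. Beta-chain CDR3 sequences of 5 such clones, the first with exactly 1 alpha and 1 beta chain in each library that had one, are shown because they carry the diversity of the receptors, with the first and the last codon in capitals. The homo replicate 1 clone held a further cell that was not a member, and the alpha chain of this clone (TRAV9N-3 with TRAJ26) is given too.
Het replicate 1 clone, TRBV16 with TRBJ2-7: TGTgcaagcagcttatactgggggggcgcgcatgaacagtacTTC
Het replicate 2 clone, TRBV12-1 with TRBJ2-1: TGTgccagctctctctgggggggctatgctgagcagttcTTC
Het replicate 3 clone, TRBV12-2 with TRBJ1-3: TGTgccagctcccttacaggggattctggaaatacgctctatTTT
Homo replicate 1 clone, TRBV1 with TRBJ2-5: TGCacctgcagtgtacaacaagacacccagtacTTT
Homo replicate 1 clone, alpha chain: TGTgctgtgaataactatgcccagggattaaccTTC
Homo replicate 2 clone, TRBV12-1 with TRBJ2-7: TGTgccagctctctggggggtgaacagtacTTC

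These beta CDR3 sequences were 33 to 45 bases long. Over all cells the mean beta CDR3 length of members was 40.7 to 41.7 bases and that of the CD8 T cells without Ccl5 was 41.6 to 41.8 bases, shorter in members in 7 of 7 libraries. The mean difference was −0.430 ± 0.351 bases (SD, n = 7), and the exact sign-flip test gave p = 0.0156, the smallest it can give, with a Benjamini-Hochberg adjusted p = 0.0469 over the 3 receptor tests. The gap ran from 0.0195 bases in homo replicate 2 to 1.05 bases in WT replicate 1. This measure was added after the data were seen. Of 22 TRBV genes, none had a higher share in members in all 7 libraries and 1 had a lower one, TRBV10, at a mean of 3.21% against 4.91%. Alpha chains typical of MAIT or NKT cells were found in at most 2 members of a library.

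**Figure D5:**
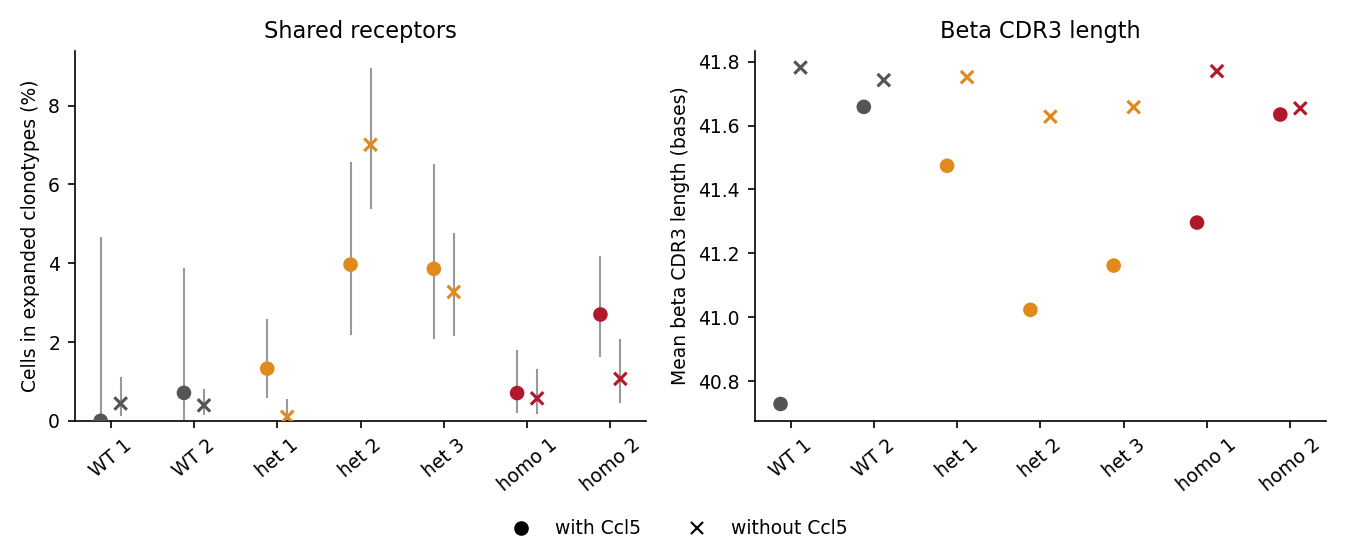
Left, percent of cells with both receptor chains whose receptor recurs in the library, for CD8 T cells with and without Ccl5, with exact binomial 95% intervals. Right, mean beta CDR3 length in bases over all beta chains of the CD8 T cells with and without Ccl5 in each library, on an axis that does not start at 0, where the members sit at 40.7 to 41.7 bases, below the cells without Ccl5 in all 7 libraries.

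The same gate was applied to 1 spleen library each of WT, Y665H and Y665F mice, which allows no test and gave 617, 424 and 1466 cells. The legend of the study's spleen figure describes 1 sample per group, combined from 3 mice, but names lymph nodes as the source. Ccl5 was found in 37.7%, 32.7% and 76.6% of gated CD8 T cells, but also in 15.8%, 12.8% and 18.1% of gated B cells. After thinning to 300 UMIs the shares were 12.2%, 8.45% and 44.2%, against 1.86%, 1.07% and 2.62% in B cells, so the Y665F library was the highest in the CD8 gate on both scales. Of the 153 genes higher in lymph node members, 140 were higher in the spleen cells with Ccl5 in all 3 libraries, and 88 of the 100 lower ones were lower in all 3. With at least 2 Ccl5 UMIs these counts were 145 and 91. Of all genes compared, 24.7% were higher and 18.5% lower in all 3.

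Most called genes kept the lymph node direction in spleen, and some did not. Gzmm stood at 57.4, 57.5 and 86.5 CPM in the cells with Ccl5 of the WT, Y665H and Y665F spleen, against 4.84, 7.17 and 3.23 CPM without. Ccr9 stood at 57.6, 54.7 and 13.7 against 150, 143 and 71.3 CPM, and at 20.5, 26.3 and 5.11 CPM in the cells with at least 2 Ccl5 UMIs. Cd163l1 stood at 8.38, 7.40 and 38.2 against 0.147, 0 and 2.05 CPM and was highest in the Y665F library. In the other direction, Fcer1g stood at 36.4 CPM with Ccl5 and 69.9 without in the Y665F library, Trgv2 at 13.4 and 21.1 there, and Xcl1 at 51.8 and 56.2 in the Y665H library. Levels are compared only within a tissue, since the 2 tissues were processed with different software versions.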

How the data were processed

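The authors made single-cell libraries from dissociated lymph node and spleen and deposited per cell barcode raw UMI counts of 32285 genes, with receptor contigs for the lymph node. Per the submitters' notes Cell Ranger 5.0, Seurat 4.0 and mm10 were used, and the matrix headers name Cell Ranger 5.0.0 for lymph node and 6.0.0 for spleen. The kit is named differently by the labels and the methods, so levels were compared only within a tissue. The members and gene lists were chosen with earlier results of these data known. Barcodes were gated as given above, and no doublet caller was run. As an alternative, called the doublet screen, cells with 2 or more productive beta chains and the top 5% of kept barcodes by UMIs in each library were left out. Counts were summed per library and tested with edgeR 4.0.16 (R 4.3.3, TMM scaling, filterByExpr with a minimum count of 10, quasi-likelihood test), with a Benjamini-Hochberg threshold of 0.05 and a log2 fold change over 1. DESeq2 1.42.0 was an alternative. The scripts were tested on simulated data. Genes named were the 10 largest rises and the 10 largest falls without overlap between sides, every called gene of the lists, and, where fewer than 10 genes were called, the list genes with the smallest p. Receptor genes were counted apart. Exact tests used scipy 1.17.1. Intervals are exact at 95%. Gene coordinates are of GRCm38. Alternatives were DESeq2, other gates, no low-count filter, a replicate block, libraries left out in turn and both shallow libraries left out. Bone marrow was not used here, as the members are of lymph node. A few genes are not reported here.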

Additional observations from a re-analysis of the deposited data

Results flagged for a closer look

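For 2 genes the difference between homo and WT was not the same in CD8 T cells with and without Ccl5 when that difference was itself tested with edgeR's quasi-likelihood test. Cd163l1 gave −3.79 on the log2 scale (adjusted p = 0.0262), described above with its values. Its change was called in 7 of 15 alternatives. AY036118, a locus whose reads commonly come from ribosomal RNA, gave −0.36 (adjusted p = 0.0499), below the 2-fold limit. It stood at 3018 and 2205 CPM for WT, 2857, 3025 and 1814 for het, and 2589 and 2382 for homo members, and at 2130 and 1724, 2626, 2721 and 1809, and 2514 and 2292 CPM in cells without Ccl5.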

How the results depend on the processing

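The 253 calls between cells with and without Ccl5 ranged from 223 to 320 with 1 library left out, and from 234 to 355 under the other alternatives. The count of lower genes was 152 without the low-count filter. The genotype counts among members were small and moved. Homo against WT, none in edgeR, gave 6 calls without the low-count filter, 4 with at least 2 Ccl5 UMIs, 2 after the doublet screen, 8 without both shallow libraries and 0 to 6 with 1 library left out. Het against WT gave 1, 3, 1 and 3 calls under these 4 settings and 0 to 1 with 1 library left out. Homo against het gave 2 without the filter, 0 with at least 2 Ccl5 UMIs, 0 with 300 genes, 0 after the doublet screen, 5 without both shallow libraries, 0 with DESeq2 and 0 to 3 with 1 library left out. The difference between the sides gave 0 calls after the doublet screen, 3 with a beta chain, 0 without both shallow libraries, 0 with DESeq2 and 0 to 4 with 1 library left out. The causes were not tested.

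With the replicate number as a block, homo against WT gave 6 calls, het against WT 2 and homo against het 3. Whether the numbers pair the libraries is not given by the labels. Deviations of same-numbered libraries correlated at −0.075 to 0.031. This cannot settle it, since deviations within a group of 2 libraries mirror each other.

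The share with Ccl5 differed between homo and WT by 35.8 percentage points, by 27.2 after thinning, 29.2 with at least 2 Ccl5 UMIs, 38.6 with 300 genes and 31.7 to 39.9 with 1 library left out. The receptor difference between homo and WT was 0.35 to 2.34 percentage points with 1 library left out, and the paired one −0.203 to 0.576, being −0.135 without het replicate 1, −0.0286 without het replicate 3 and −0.203 without homo replicate 2. The beta CDR3 difference was −0.498 to −0.326 bases with 1 library left out, and that alternative and the spleen count with at least 2 Ccl5 UMIs (145) were chosen after seeing the data. The fold changes of the named genes were counted once per gene and alternative. Of these, 1199 kept their side of the threshold, 39 gained a call, 45 lost one and none changed sign. The 5 deeper libraries carry most member UMIs, and each comparison with WT rests on 2 WT libraries.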
